A study of Mus musculus with 8 samples.

Results

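The 10 genes described here are those of the cadherin switch and of the mesenchymal matrix: Cdh1 and Cdh2, the transcription factors Zeb1, Zeb2, Snai1 and Snai2, the filament gene Vim, and the matrix genes Fn1, Sparc and Tgfbi. They were taken by gene name from 8 gene abundance tables that hold 52636 gene IDs, and each symbol matched 1 gene ID. RNA was measured in mixed cultures of colon cancer cells with splenocytes. The former had been sorted by tdTomato, their reporter, and CD4, a helper T cell protein, into trogocytic cells, used in 4 co-cultures, and non-trogocytic cells, used in the 4 control co-cultures. Trogocytosis is the uptake of membrane pieces, with their proteins, from another cell. All 8 cultures were of strain C57BL/6. In both groups the cancer cells were liver metastases, grown after organoids with a tdTomato reporter were placed in the spleen, and the splenocytes came from Actin-GFP reporter mice of the same genetic background. Cultures ran for 5 days at 1 cancer cell to 50 splenocytes. Libraries 1 to 4 of each group have no stated link to separate animals or sorts, so p-values measure the spread between these samples, which may be technical. The organoid genotype and the age of the mice were not given in the sources used here.

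Epithelial cells hold together through E-cadherin, the product of Cdh1. In an epithelial to mesenchymal transition the SNAI and ZEB factors bind E-box motifs and repress Cdh1, while N-cadherin (Cdh2), vimentin and matrix proteins rise. In a mixed culture these genes are not specific to cancer cells: leukocytes make vimentin, macrophages express Zeb2, T cells and stromal cells can express Zeb1, and fibroblasts, endothelium and megakaryocytes make SPARC. Fibronectin is made by hepatocytes, fibroblasts and macrophages, and TGFBI by macrophages and fibroblasts. Which cells made each transcript was not measured. For any member, fewer cells of a type and less RNA per cell cannot be told apart in these bulk libraries.

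Each library held 1.39 to 1.84 Gb of aligned bases, equal to 6.93 to 9.21 M full-length read pairs, and 10867 to 12362 genes at or above 1 TPM, a transcript level corrected for length and scaled to a total of 1000000 in every library. Epithelial and leukocyte markers were present in every library: the summed TPM of 12 epithelial genes was 3801 to 9749 in the non-trogocytic group and 6160 to 7560 in the trogocytic group, with Cdx1 listed at 0, and that of 9 pan-leukocyte genes 903 to 5228 and 1344 to 3896. Of 11433 genes tested with limma on log2(TPM + 1), 6 were called at an adjusted p below 0.05. Non-trogocytic library 3 was the only one with hepatocyte transcripts: its 7 hepatocyte genes summed to 159 TPM and were listed at 0 in the other 7 libraries.

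Among the 10 genes, 7 passed the filter of at least 1 TPM in at least 4 libraries, and Cdh2, Snai1 and Snai2 did not. By limma with Benjamini-Hochberg adjustment 0 of the 7 were called, against 0.0525% of all tested genes (0.0175% higher and 0.035% lower in the trogocytic group). An unadjusted p below 0.05 was found for 2 of the 7, against 4.59% of all tested genes: Zeb1 was higher, as were 2.07% of all, and Sparc lower, as were 2.52%. The groups of 1 of the 7, Sparc, did not overlap, against 2.68% of all tested genes (1.37% with the trogocytic libraries higher and 1.3% with them lower). Sparc passed the filter only through its control libraries, where it was high, so its place in these counts is not independent of the filter. All differences below are the trogocytic mean minus the control mean of log2(TPM + 1), so low genes look less changed than they are. Of the 7, 3 were above 0 and 4 below, with a median of -0.12 beside 0.01 over all tested genes. A missing call does not show that a gene was equal between groups.

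**Figure D1:**
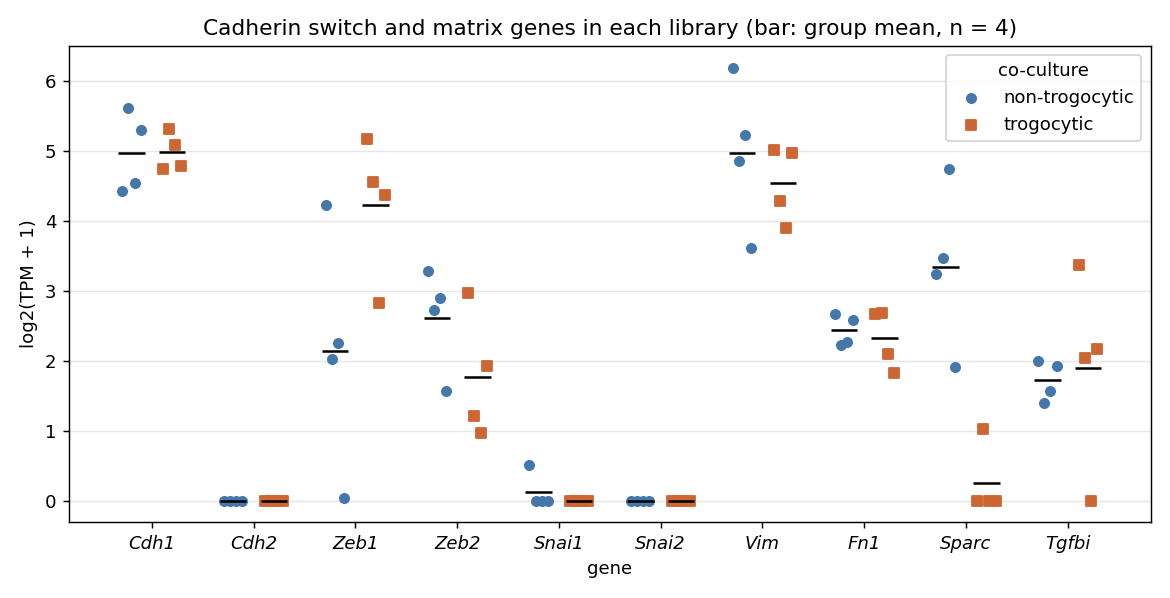
Level of each of the 10 genes, as log2(TPM + 1) on the vertical axis, in 4 non-trogocytic (circles) and 4 trogocytic (squares) co-cultures, with bars at the group means. Sparc is the gene whose groups do not overlap, and Cdh2 and Snai2 lie at 0 in all 8 libraries.

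Of the cadherin pair, Cdh1 was detected in every library and Cdh2 in none. Cdh1 (ENSMUSG00000000303.12, chr8:106603351-106670246, plus strand, build GRCm38) was at 20.5, 47.8, 22.2 and 38.4 TPM in non-trogocytic libraries 1 to 4, and at 25.7, 38.6, 33.0 and 26.6 TPM in trogocytic libraries 1 to 4. The trogocytic values lay inside the range of the controls. Group means were 32.2 ± 13.2 and 31.0 ± 6.03 TPM (SD, n = 4 each), and the log2 difference was 0.01 ± 0.34 (SE, limma, adjusted p = 0.9998). Between 332 and 756 read-pair equivalents per library lay behind these values. Cdh2 (ENSMUSG00000024304.14, chr18:16588877-16809246, minus strand), the N-cadherin gene, was listed at 0 in all 8 libraries. Genes that every cell uses were above 0 throughout, but their levels differed widely. Gapdh was low, at 51.5 to 151.5 TPM, beside Rplp0 (2007 to 3411 TPM) and Ppia (2605 to 3748 TPM). The cause of the low Gapdh values was not tested.

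Cdh1 moved with the epithelial markers from library to library. Over the 8 libraries, Cdh1 and the mean log2 level of 11 tested epithelial genes gave r = 0.88 (exact permutation p = 0.00268, adjusted over 21 relations 0.0187) and rho = 0.88 (exact permutation p = 0.00724, adjusted 0.0507). Without non-trogocytic libraries 1 and 2, the farthest from the median of the markers, r was 0.75, and within the non-trogocytic and trogocytic groups it was 0.92 and 0.71 (n = 4 each). Both axes come from the same libraries and share the TPM total. Taken relative to those markers, Cdh1 differed between groups by 0.04 ± 0.15 (SE, two-sided exact permutation test, p = 0.771, adjusted over 14 comparisons 0.923, n = 4 each). Per 100 TPM of Epcam, an epithelial adhesion gene, Cdh1 was at 6.2 to 12.6 TPM in the non-trogocytic and 8.08 to 10.8 TPM in the trogocytic group. The 3 genes most like Cdh1 over the 8 libraries, out of 7187 candidates, were Mtbp (r = 0.99), Tmx2 (r = 0.99) and the ribosomal protein gene Rpl8 (r = 0.96).

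Other cadherins and catenins gave no call. Of 13 genes, 7 were tested, 3 above and 4 below 0, with a median of -0.11, and 0 had an unadjusted p below 0.05 in limma. Cdh17, the intestinal cadherin, stood at 192 ± 118 and 204 ± 28.9 TPM (SD, n = 4 each), a level above that of Cdh1. Ctnna1, which encodes alpha-catenin and links cadherins to actin, stood at 357 ± 98.3 and 350.3 ± 8.70 TPM. Ctnnbip1, an inhibitor of beta-catenin, was at 5.87 ± 1.57 and 2.67 ± 2.00 TPM, a log2 difference of -1.02 ± 0.49 (SE, limma, adjusted p = 0.9998). Cdh3, which encodes P-cadherin, Cdh6 and Cdh16 were listed at 0 in all 8 libraries.

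The SNAI factors were at or near 0. Snai2 (ENSMUSG00000022676.6, chr16:14705852-14709395, plus strand) was listed at 0 in every library. Snai1 (ENSMUSG00000042821.7, chr2:167538195-167542814, plus strand) was at 0.416 TPM in non-trogocytic library 1, which is 2.85 read-pair equivalents, and listed at 0 in the other 7 libraries. No fold was computed for either gene.

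The promoter windows printed here, of Snai1 and Zeb2, are the 2 of those searched that overlap no exon. Other windows of Zeb2 overlap exons and are not shown. Both genes encode E-box repressors, 1 nearly at 0 and 1 detected in every library. The windows are the 250 bases before a start given by RefSeq on GRCm38.p6. They lie at chr2:167537945-167538194 (plus strand) for Snai1 and chr2:45117443-45117692 (minus strand) for Zeb2. The Zeb2 window does not abut the gene as listed below, whose coordinates end at 45117395. Capitals mark the E-box CACCTG, searched on both strands (CAGGTG on the other).
Snai1: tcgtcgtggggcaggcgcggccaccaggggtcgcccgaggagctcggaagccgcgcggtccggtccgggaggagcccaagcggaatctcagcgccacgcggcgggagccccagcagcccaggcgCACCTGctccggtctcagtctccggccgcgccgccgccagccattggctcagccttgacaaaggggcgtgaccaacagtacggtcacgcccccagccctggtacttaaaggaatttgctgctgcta
Zeb2: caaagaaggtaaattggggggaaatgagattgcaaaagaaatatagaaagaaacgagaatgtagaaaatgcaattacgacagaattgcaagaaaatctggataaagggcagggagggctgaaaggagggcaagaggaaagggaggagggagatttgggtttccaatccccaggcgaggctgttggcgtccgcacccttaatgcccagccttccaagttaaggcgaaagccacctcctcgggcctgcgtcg
The Snai1 window holds 1 match, starting 126 bases before the gene start, and the Zeb2 window none. Windows of 5 of the 10 genes (Vim, Zeb2, Snai1, Sparc and Tgfbi) were searched, 8 windows in all, of which 1 held the motif. Of 32851 RefSeq windows of the same length, 17.2% held it. The other members, among them the cadherin genes and the other ZEB gene, were not searched, so the count does not cover them. A match describes the letters only.

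Of the ZEB pair, Zeb1 had its higher mean in the trogocytic group and Zeb2 in the controls, and neither difference passed the test. Zeb1 (ENSMUSG00000024238.14, chr18:5591860-5775467, plus strand) was at 17.7, 3.06, 3.78 and 0.022 TPM in non-trogocytic libraries 1 to 4, and at 35.0, 22.5, 6.05 and 19.7 TPM in trogocytic libraries 1 to 4. Trogocytic libraries 1, 2 and 4 lay above every control, and trogocytic library 3 lay below non-trogocytic library 1, so the groups overlapped. The difference was 2.09 ± 0.83 (SE, limma, unadjusted p = 0.0292, rank 322 of 11433, adjusted p = 0.9998). It was 1.39 without non-trogocytic library 4 and 3.45 with a pseudocount of 0.01. The groups of Zeb1 did not overlap without non-trogocytic library 1, where 6.2% of all tested genes did not. Nor did they without the first libraries of both groups, where 10.5% of all tested genes did not. Both settings leave out the highest control of Zeb1, so the lost overlap follows from which library was dropped.

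Zeb2 (ENSMUSG00000026872.17, chr2:44983632-45117395, minus strand) was at 8.72, 5.62, 6.45 and 1.95 TPM in the non-trogocytic and at 6.84, 1.32, 0.959 and 2.78 TPM in the trogocytic libraries. Trogocytic library 1 was above 3 of the 4 controls, and trogocytic libraries 2 and 3 were below all of them. In trogocytic libraries 2 and 3, Zeb2 rested on 10.3 and 4.58 read-pair equivalents. The log2 difference of -0.85 ± 0.59 (SE) did not pass (limma, adjusted p = 0.9998). Zeb2 overlaps genes on the other strand, of which Zeb2os (mean 2.97 TPM) and Gm27676 (mean 2.83 TPM) were the highest. The strand setting is not given in the sources used here, so reads of these genes cannot be told apart from those of Zeb2.

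The TPM of both ZEB genes rested on thin coverage of their gene models. In these tables the ratio of coverage to FPKM, set against that of genes with 1 transcript, gives the mean length of the transcripts that carried the level as a share of all exons of the gene. For Zeb1 this share was 4.83% (3.15% to 8.74% over libraries), and 1.52% of tested genes were at or below it. For Zeb2 it was 10.04%, for Cdh1 96.8%, and the median of tested genes was 70.6%. The level of Zeb1 was thus assigned to short transcripts, with a mean depth over its exons of 0.00131 to 0.718 reads. Rescaled to mean coverage, Zeb1 was at 0.294 ± 0.335 in the non-trogocytic and 0.806 ± 0.413 in the trogocytic group (SD, n = 4 each), and mean TPM over the 8 libraries was 24.5 times the mean coverage-based level for Zeb1 and 9.95 times for Zeb2. By TPM, Zeb1 was the gene with the third-highest mean of the 10, and by coverage-based level it came 6th, after Fn1 and Tgfbi. Zeb1 and Zeb2 did not pass the filter when coverage replaced TPM.

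**Figure D2:**
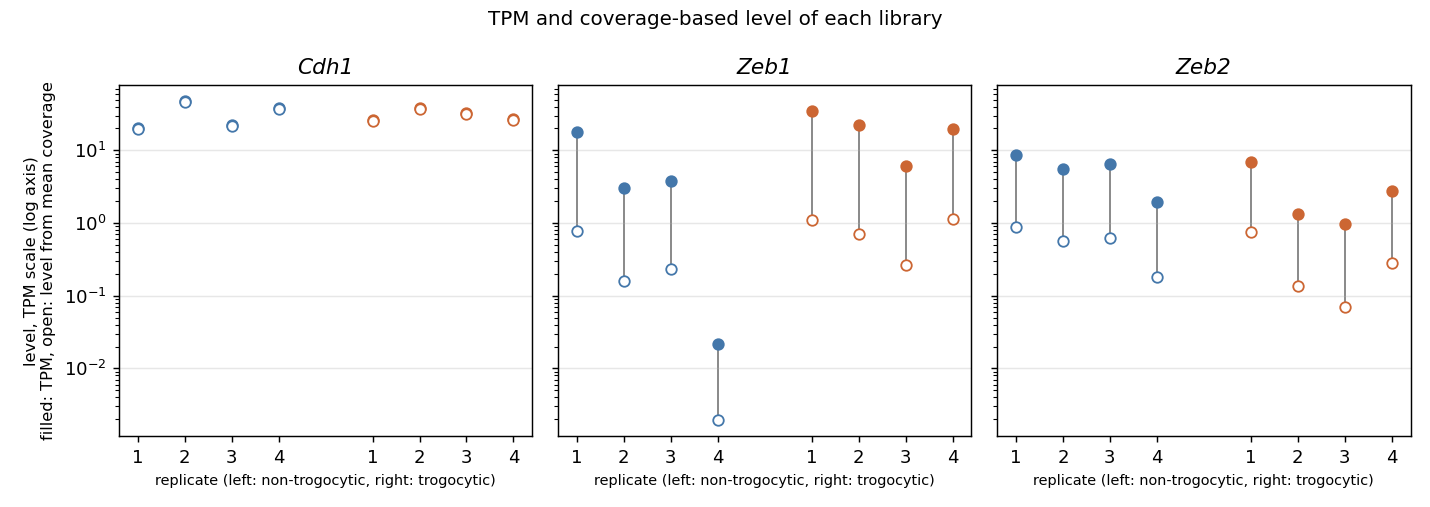
TPM (filled) and coverage-based level (open) of Cdh1, Zeb1 and Zeb2 in each library on a log axis, non-trogocytic replicates at the left of each panel and trogocytic at the right. The pairs of points coincide for Cdh1, while TPM is 11.4 to 31.8 times the coverage-based level for Zeb1 and 9.13 to 13.8 times for Zeb2.

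Zeb2 went with the macrophage markers and, less closely over all 8 libraries, with the pan-leukocyte markers. Over the 8 libraries, Zeb2 and the mean log2 level of 11 tested macrophage genes gave r = 0.89 (exact permutation p = 0.000422, adjusted over 21 relations 0.0089) and rho = 0.95 (exact permutation p = 0.00114, adjusted 0.0234). Without trogocytic libraries 2 and 3 r was 0.75, and within the groups it was 0.68 and 0.96. With the pan-leukocyte genes r was 0.75 (exact permutation p = 0.0431, adjusted 0.157) and rho 0.86 (exact permutation p = 0.0107, adjusted 0.0563), and within the groups r was 0.90 and 0.93. Over deviations from the group means, r was 0.86 with the macrophage genes and 0.90 with the pan-leukocyte genes, so the order of the lists was not kept. The macrophage genes stood below 0 in 11 of 11 tests, beside 49.3% of all tested genes, with a median of -0.76. Of them 0 were called, and Lyz2, C1qb and Fcgr1 had an unadjusted p below 0.05 in limma. Their summed TPM was 3340 to 14426 in the non-trogocytic and 1632 to 5198 in the trogocytic group, and none of the 13 was at 0 in all libraries. The part of this in the Zeb2 difference was not tested. The genes most like Zeb2 were March1 (r = 0.98), Lyz1 (r = 0.98), a lysozyme gene, and Grn (r = 0.97), the progranulin gene.

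Zeb1 had its highest correlation, among the 3 marker lists, with the pan-leukocyte genes: r = 0.71 (exact permutation p = 0.0493, adjusted over 21 relations 0.157) and rho = 0.55 (exact permutation p = 0.171). Within the groups r was 0.99 and 0.79. Taken relative to the pan-leukocyte genes, Zeb1 was higher in the trogocytic group by 2.03 ± 0.51 (SE, two-sided exact permutation test, p = 0.0286, the smallest that 4 against 4 allows, adjusted over 14 comparisons 0.133). How often all tested genes differ this far on that scale was not computed, and the Zeb1 values rest on the thin coverage described above. T cell markers stood above 0 in 9 of 9 tests, with a median of 0.91 and 0 called; Cd3g had an unadjusted p below 0.05 in limma. Their summed TPM was 79.0 to 620 in the non-trogocytic and 229 to 958 in the trogocytic group, and none of the 10 was at 0 in all libraries. The rise was not particular to T cells. Natural killer cell genes stood above 0 in 2 of 2 tests (median 1.06) and erythroid genes in 4 of 4 (0.83). B cell genes did so in 3 of 3 (0.22) and neutrophil genes in 5 of 6 (0.44). The part of T cells, or of these other cells, in the Zeb1 values was not tested. The genes most like Zeb1 were Ccr7 (r = 0.97), a chemokine receptor gene of T cells and dendritic cells, Suz12 (r = 0.97) and Tspan32 (r = 0.95).

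Among other mesenchymal transcription factors 3 of 11 were tested, 1 above and 2 below 0, with a median of -0.30 and 0 called. Hmga2, a chromatin protein gene often active in tumours, was at 23.4 ± 10.7 and 15.9 ± 6.32 TPM (SD, n = 4 each). Tcf4, which encodes an E-protein, was at 11.8 ± 3.31 and 13.3 ± 2.47 TPM, a level carried, as for Zeb1, by short transcripts (2.86% of its gene model). Twist1, which did not pass the filter and was looked at after its values were seen, ranged from 0 to 4.04 TPM, and Prrx1, Foxc2 and Gsc were listed at 0 throughout. Of 11 keepers of the epithelial state 9 were tested, 2 above and 7 below 0, with a median of -0.12 and 0 called. Ehf, an epithelial ETS factor, was at 142 ± 55.9 and 128 ± 50.4 TPM, and Klf4 at 41.0 ± 8.40 and 49.4 ± 8.06 TPM. Elf3 was at 10.01 ± 5.71 and 3.91 ± 2.78 TPM, with a log2 difference of -1.15 ± 0.58 (SE, limma, adjusted p = 0.9998).

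Vim (ENSMUSG00000026728.9, chr2:13573927-13582826, plus strand) encodes vimentin, the intermediate filament of mesenchymal cells and of leukocytes. It was at 72.1, 27.8, 36.5 and 11.2 TPM in non-trogocytic libraries 1 to 4 and at 31.4, 18.4, 13.9 and 30.3 TPM in trogocytic libraries 1 to 4. The controls held both the highest and the lowest value. The log2 difference was -0.43 ± 0.52 (SE, limma, adjusted p = 0.9998), and -0.02 without non-trogocytic library 1 and -0.88 without non-trogocytic library 4. The ratio of Vim to Cdh1 spanned 12.1-fold, from 0.291 to 3.51 in the non-trogocytic and from 0.419 to 1.22 in the trogocytic group.

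Vim followed the pan-leukocyte markers. The correlation was r = 0.90 (exact permutation p = 0.00233, adjusted over 21 relations 0.0187) and rho = 0.93 (exact permutation p = 0.00223, adjusted 0.0234), r = 0.87 without non-trogocytic library 1 and trogocytic library 1, and 0.98 and 0.99 within the groups. With the macrophage markers r was 0.70 and rho 0.71 (exact permutation p = 0.0525 and 0.0576). Vim and Cdh1 went in opposite directions over the libraries (r = -0.70), as did Cdh1 and the pan-leukocyte markers (r = -0.73). Taken relative to the pan-leukocyte genes, Vim differed by -0.50 ± 0.19 (SE, two-sided exact permutation test, p = 0.0857, adjusted over 14 comparisons 0.24). The genes most like it were Gpr65 (r = 0.98), Evi2a (r = 0.98) and Tbc1d4 (r = 0.97).

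**Figure D3:**
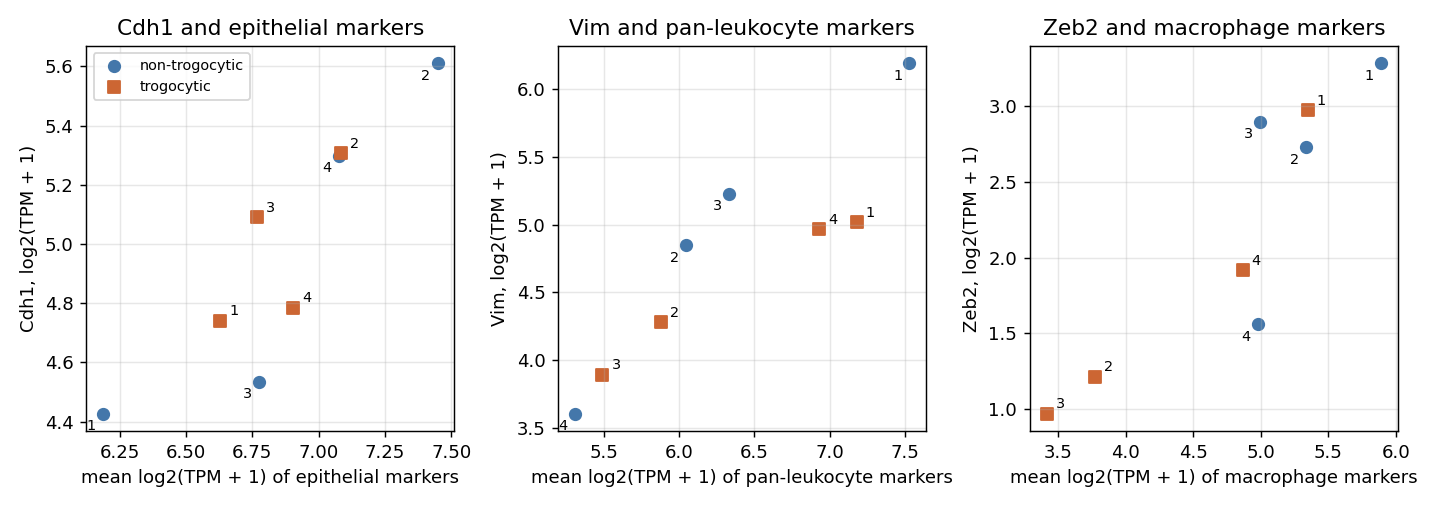
Level of Cdh1, Vim and Zeb2, as log2(TPM + 1), against the mean log2(TPM + 1) of epithelial, pan-leukocyte and macrophage markers, 1 point per library with its replicate number. Pearson's r over the 8 libraries is 0.88, 0.90 and 0.89.

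Sparc was the gene that stood apart. Sparc (ENSMUSG00000018593.13, chr11:55394500-55423183, minus strand) encodes a secreted protein that binds collagen. It was at 8.43, 10.1, 25.7 and 2.77 TPM in non-trogocytic libraries 1 to 4, which is 60.8, 82.8, 240 and 21.7 read-pair equivalents. In the trogocytic group it was at 1.04 TPM (8.90 read-pair equivalents) in library 2 and listed at 0 in libraries 1, 3 and 4. Every control lay above every trogocytic library. The log2 difference was -3.08 ± 0.61 (SE, limma, unadjusted p = 0.000409, rank 17 of 11433), but the gene was not called (adjusted p = 0.275).

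The size of the Sparc difference depended on how the zeros were treated. It was -5.61 with a pseudocount of 0.1, -8.11 with a pseudocount of 0.01 and -2.24 with FPKM in place of TPM, and over all alternatives the adjusted p ran from 0.146 to 0.860. Without non-trogocytic library 3, the highest, it was -2.62 (limma, adjusted p = 0.648). Sparc passed the filter on 5 libraries, of which 4 were controls, so it could be tested only because it was above 1 TPM in that group. Relative to the epithelial genes Sparc differed by -3.06 ± 0.70 and relative to the pan-leukocyte genes by -3.15 ± 0.80 (SE, two-sided exact permutation test, each p = 0.0286, adjusted over 14 comparisons 0.133). Both comparisons reuse the Sparc values that let it pass the filter, so they add no separate support.

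Of 10 fibroblast genes 5 were above 0 in controls only, 1 (Dpt, 0.09 TPM in trogocytic library 3) in the trogocytic group only, 1 in both groups, and 3 in no library. The share of all genes above 0 in 1 group only was not computed, so this count has no background beside it. It includes Pdgfra, at 0.016 TPM in non-trogocytic library 1 only. Controls held 7.64 to 9.21 M read-pair equivalents and trogocytic libraries 6.93 to 8.50 M, which bears on detection near 0. The following genes were picked after their values were seen and none passed the filter, so no test was made. Col1a1, a chain of type I collagen, was at 0.937, 1.5, 2.91 and 0.313 TPM in non-trogocytic libraries 1 to 4, and Col1a2, the other chain, at 2.07, 2.15, 7.40 and 0.221 TPM. Both, and Col3a1, were above 0 in all 4 controls and listed at 0 in all 4 trogocytic libraries. With no filter on low values, 1.98% of 22213 genes did not overlap between groups, in either direction. Leukocyte genes were among those lower without overlap: Csf1r and Fcgr1 of the macrophage list and Itgax of the dendritic cell list. Dcn, the decorin gene, was at 4.47 and 22.1 TPM in non-trogocytic libraries 2 and 3, at 0.185 TPM in trogocytic library 1 and otherwise at 0. Acta2, an actin of smooth muscle and activated stellate cells, was at 3.82, 6.23 and 3.99 TPM in non-trogocytic libraries 1 to 3 and listed at 0 elsewhere.

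Over the whole list, the summed TPM of 10 fibroblast genes was 0.560 to 35.5 in the non-trogocytic group, with 6 of 10 genes above 0, and 0 to 0.185 in the trogocytic group, with 2 of 10 above 0. Fap, Mfap5 and Loxl1, which also mark fibroblasts, were at 0 in all 8 libraries. The 9 smooth muscle, pericyte and stellate cell genes summed to 0 to 6.23 TPM and to 0, with Tagln, Des, Pdgfrb, Rgs5 and Cspg4 at 0 in all libraries. Sparc and both type I collagen genes were highest in non-trogocytic library 3, the library with hepatocyte transcripts, and lowest among the controls in library 4. Dcn and Lum were also highest in non-trogocytic library 3. Col3a1 (1.71 TPM, against 0.905 TPM in library 3) and Acta2 (6.23 TPM, against 3.99 TPM) were highest in non-trogocytic library 2. The part of stromal cells in the Sparc difference was not tested.

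The summed markers of other cell types that can make SPARC overlapped between groups. The 10 endothelial genes summed to 5.07 to 20.9 and 0.694 to 20.5 TPM, with Kdr, Tie1, Emcn and Stab2 at 0 in all libraries. Within that list 4 genes were singled out after their values were seen. Egfl7 made up 20.5 TPM of the sum in trogocytic library 2 and 15.2 TPM in non-trogocytic library 2. Vwf was above 0 in non-trogocytic libraries 1 (2.04 TPM) and 4 (2.28 TPM) only, and Pecam1 was highest in trogocytic library 3 (8.15 TPM). Cdh5, the endothelial cadherin gene, was at 1.21, 0.683, 1.96 and 0.071 TPM in non-trogocytic libraries 1 to 4, at 0.428 TPM in trogocytic library 1 and listed at 0 in the other 3. The 8 megakaryocyte and platelet genes summed to 82.9 to 155 and 60.4 to 179 TPM, and Itga2b, Gp9, Gp1ba and Treml1 were among those at 0. The part of these cells in the Sparc difference was not tested. Sparc gave r = 0.02 and rho = 0.24 with the epithelial markers (exact permutation p = 0.962 and 0.564), and r = 0.04 and rho = 0.02 with the pan-leukocyte markers (exact permutation p = 0.923 and 0.979). With the macrophage markers r was 0.49 and rho 0.44 (exact permutation p = 0.227 and 0.279). The genes most like Sparc were Tspan5 (r = 0.96), Cd9 (r = 0.95), a tetraspanin gene at 1829 to 2185 TPM, and Gdpd1 (r = 0.95).

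**Figure D4:**
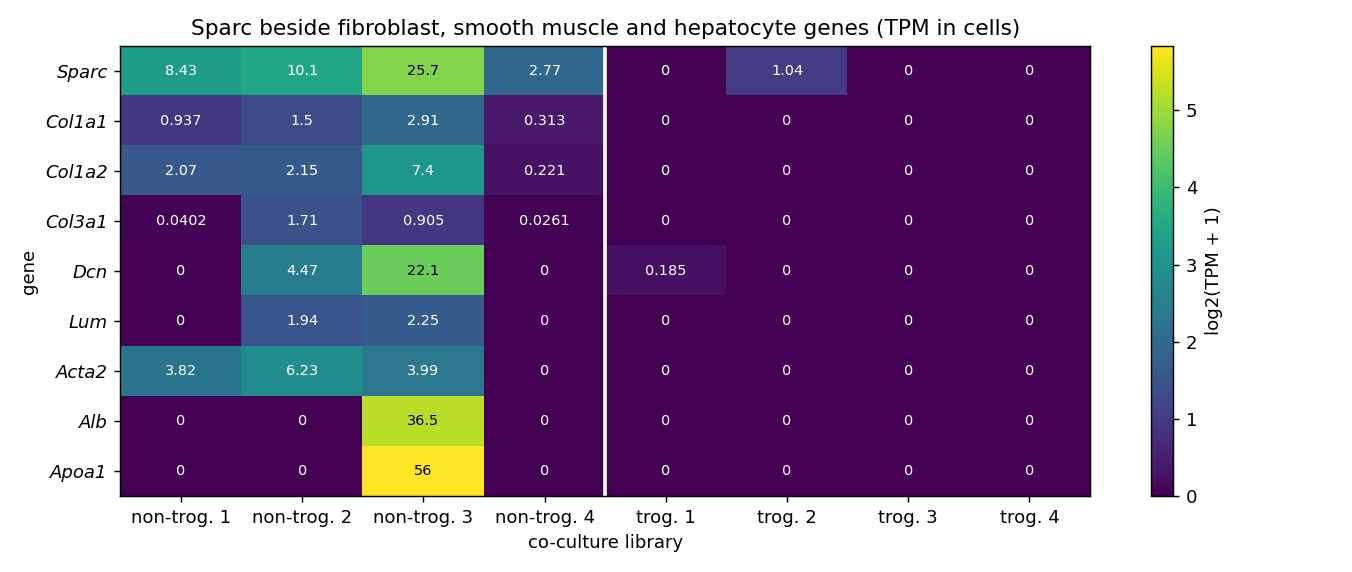
TPM of Sparc, 6 fibroblast and smooth muscle genes and 2 hepatocyte genes (rows) in the 8 libraries (columns), coloured by log2(TPM + 1), with non-trogocytic libraries at the left of the white line. Sparc, Col1a1, Col1a2 and Col3a1 are above 0 in all 4 non-trogocytic libraries, and Alb and Apoa1 are above 0 in non-trogocytic library 3 only. The fibroblast and smooth muscle rows were picked after their values were seen and do not stand for their whole lists. Not shown are, among others, Fap, Mfap5, Loxl1, Tagln, Des, Pdgfrb, Rgs5 and Cspg4, at 0 in all 8 libraries, and Dpt, above 0 in trogocytic library 3 only.

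Fn1 and Tgfbi were low and overlapped between groups. Fn1 (ENSMUSG00000026193.15, chr1:71585520-71653200, minus strand), the fibronectin gene, was at 5.33, 3.67, 3.83 and 4.98 TPM in the non-trogocytic and at 5.39, 5.42, 3.25 and 2.55 TPM in the trogocytic libraries. The 8 TPM values stayed close together, and the log2 difference was -0.12 ± 0.43 (SE, limma, adjusted p = 0.9998). That closeness depends on the transcripts to which the level was assigned, as TPM was 1.49 to 3.64 times the coverage-based level. By coverage-based level Fn1 ran from 1.37 in non-trogocytic library 4 to 3.52 in trogocytic library 1. In non-trogocytic library 3, the one with hepatocyte transcripts, Fn1 lay between the other controls. The genes most like Fn1 were Taf1b (r = 0.94), Mllt10 (r = 0.93) and the copper transporter gene Slc31a1 (r = 0.91).

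Tgfbi (ENSMUSG00000035493.10, chr13:56609523-56639562, plus strand) encodes a matrix protein induced by TGF-beta. It was at 2.98, 1.63, 1.96 and 2.79 TPM in the non-trogocytic libraries and at 9.29, 3.13, 0 and 3.5 TPM in the trogocytic libraries. Trogocytic libraries 1, 2 and 4 lay above every control, and in trogocytic library 3 the gene was listed at 0. The log2 difference was 0.17 ± 0.66 (SE, limma, adjusted p = 0.9998), and its sign turned without trogocytic library 1 (-0.31) and with a pseudocount of 0.1 (-0.39). Without trogocytic library 3, the groups of 3 of the 7, Sparc, Zeb1 and Tgfbi, did not overlap. At that smaller size 4.99% of all tested genes did not. That library held the lowest trogocytic value of both Zeb1 and Tgfbi, so leaving it out removes their overlap by choice of library. It gave the highest such count with 1 library left out, and Sparc did not overlap with all libraries either, so the 3 are no separate support. The genes most like Tgfbi were Arhgef3 (r = 0.95), Pole4 (r = 0.93) and Stk24 (r = 0.93).

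Other matrix genes, TGF-beta pathway genes and integrins gave no call and no unadjusted p below 0.05 in limma. Of 22 other matrix genes 6 were tested, 2 above and 4 below 0, with a median of -0.05. Cd44, a hyaluronan receptor gene, was at 163 ± 8.29 and 159 ± 10.6 TPM (SD, n = 4 each), and Col4a1, a basement membrane collagen gene, at 4.13 ± 1.4 and 2.85 ± 0.951 TPM. Postn, Tnc, Vcan and Col6a3 were listed at 0 in all 8 libraries. Of 19 TGF-beta pathway genes 12 were tested, 7 above and 5 below 0, with a median of 0.08. Tgfbr1, a receptor gene, was at 11.2 ± 8.92 and 5.34 ± 4.16 TPM, and Skil, a repressor of SMAD signalling, at 78.9 ± 37.5 and 87.6 ± 42.0 TPM. Of 15 integrin genes 10 were tested, 6 above and 4 below 0, with a median of 0.04. Itgb1, the shared beta-1 chain, was at 117 ± 18.6 and 100.1 ± 18.1 TPM, and Itgb6, an epithelial integrin chain, at 14.6 ± 7.72 and 19.95 ± 6.53 TPM.

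Ordered by mean TPM over the 8 libraries, Cdh1 (31.6 ± 9.49, SD, n = 8) and Vim (30.2 ± 19.2) came first, and Cdh1 was the higher in 4 of 8 libraries. Zeb1 (13.5), Sparc (6.00), Zeb2 (4.33), Fn1 (4.30), Tgfbi (3.16) and Snai1 (0.052) followed. The ranges of all neighbours in this order overlapped. The order differed between groups: in the controls it was Vim (36.9), Cdh1 (32.2), Sparc (11.8), Zeb1 (6.15), Zeb2 (5.68), Fn1 (4.45) and Tgfbi (2.34). In the trogocytic group it was Cdh1 (31.0), Vim (23.5), Zeb1 (20.8), Fn1 (4.15), Tgfbi (3.98), Zeb2 (2.98) and Sparc (0.259). By coverage-based level the order was Cdh1 (30.6), Vim (13.9), Sparc (3.46), Fn1 (2.35), Tgfbi (2.33), Zeb1 (0.550) and Zeb2 (0.435), so Cdh1 was above Vim on this scale. Vim and Zeb2 were the pair of members with the highest correlation over the 8 libraries (r = 0.85), and Zeb1 and Zeb2 gave r = 0.21, as a description over libraries that share their TPM total.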

How the data were processed

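Polyadenylated RNA of 8 mixed co-cultures, 4 per group, was sequenced as paired reads of 100 bp after a low-input library preparation, per the labels' protocols. Builds GRCm38 and mm10 and the tools StringTie 1.3.3, HISAT2 and DESeq version 2 are listed in the submitters' processing notes. The annotation release was not given in the sources used here. Per the file headers, each deposited table gives 3 values per gene, namely coverage, FPKM and TPM. The deposited coverage signal is unscaled mean read depth, and the deposited FPKM and TPM were scaled by the authors for length and depth.

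TPM was summed over rows of a gene ID, and 11433 genes with at least 1 TPM in at least 4 libraries were tested two-sided on log2(TPM + 1) in limma 3.58.1 under R 4.3.3, with trended variances and Benjamini-Hochberg adjustment over all of them, and called below 0.05. No count test was run. Aligned bases were read from coverage over FPKM of 1624 to 1785 genes with 1 transcript per library (100% within 1% of a constant), and read-pair equivalents assume 200 aligned bases a pair. Over 33397 gene-by-library values 94.05% of coverage to FPKM ratios lay, within 2%, between the shortest and longest transcript of GENCODE M21. Group differences relative to markers, and correlations, used exact permutation tests (SciPy 1.17.1). The members and gene lists were chosen with earlier results of these data known. Named genes are the 10 members, of each list the 2 genes lowest in p and the 2 highest in mean TPM, and the 3 genes most like each tested member (mean of at least 5 TPM, no clone-type symbol), of which not all are printed. Alternatives covered unit, pseudocount, filter, scaling, variance model, replicate block and left-out libraries.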

Additional observations from a re-analysis of the deposited data

Results flagged for a closer look

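In 27 groups of 4 libraries, 4 held a library whose gap to the nearest other took up more of the group's range than Dixon's critical value, which chance passes in about 1 of 20 groups. That rate does not hold for 3 of the 4 (Snai1, Sparc and the hepatocyte sum), where the other 3 libraries are at 0 and any value above 0 passes. Snai1 was at 0.416 TPM in non-trogocytic library 1 and listed at 0 in the other 3 controls. Sparc was at 1.04 TPM in trogocytic library 2 and listed at 0 in the other 3 trogocytic libraries. The summed TPM of endothelial markers was 20.9 in non-trogocytic library 2 and 5.07 to 7.41 in the other controls. The summed TPM of hepatocyte markers was 159 in non-trogocytic library 3 and 0 in the other controls.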

How the results depend on the processing

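Calls among the 10 genes were 0 in all 21 alternatives. Over all genes the 6 calls became 3 with FPKM, 2 with a pseudocount of 0.01, 1 with no filter on low values, 1 with no mean-variance trend, 0 to 3 with 1 library left out (0 without non-trogocytic library 3 or trogocytic library 1, 2 or 3, 1 without trogocytic library 4, 2 without non-trogocytic library 2, and 3 without non-trogocytic library 1 or 4), and 0 without the first libraries of both groups, which was chosen after seeing the data, as was coverage in place of TPM. With a replicate block the calls were 0, also with median-of-ratios scaling, and Sparc stayed at -3.08 (limma, adjusted p = 0.593). Same-numbered libraries correlated by 0.24, 0.01, 0.06 and -0.09 in their deviations from the group means, so the numbers were not taken to pair the samples. The 1 gene without overlap became 0 with a filter of 5 TPM, at which Sparc was not tested, 1 to 3 with 1 library left out (2 without non-trogocytic library 1, 3 without trogocytic library 3), and 2 without the first libraries of both groups. With fewer libraries more of all tested genes did not overlap: 6.2%, 4.99% and 10.5% in these 3 settings, against 2.68%. Each of these 3 settings leaves out a library that made the groups of Zeb1 overlap, so the higher counts follow from which library was dropped.

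Signs turned for Cdh1, Fn1 and Tgfbi and, relative to epithelial genes, for Vim. Cdh1 was -0.038 with FPKM and -0.087 without the first libraries, Fn1 0.043 with coverage, and Tgfbi -0.39 and -1.18 with pseudocounts of 0.1 and 0.01 and -0.22 without the first libraries. With 1 library left out Cdh1 ran from -0.17 to 0.23, Fn1 from -0.24 to 0.048 and Tgfbi from -0.31 to 0.81. Relative to epithelial genes Tgfbi was -0.35 with a pseudocount of 0.1 and -0.044 without the first libraries, and Fn1 0.021 without the first libraries; relative to pan-leukocyte genes Tgfbi was -0.45 and -0.43. With 1 library left out, the ranges relative to epithelial genes were -0.075 to 0.12 for Cdh1, -0.93 to 0.23 for Vim, -0.35 to 0.21 for Fn1 and -0.36 to 0.80 for Tgfbi, and relative to pan-leukocyte genes -0.64 to 0.39 for Cdh1, -0.52 to 0.20 for Fn1 and -0.21 to 0.51 for Tgfbi. Sparc, Zeb1, Zeb2 and Vim kept the sign of their limma difference in every alternative that could test them. The cause of these shifts was not tested. At this depth Snai1 in 1 library, Sparc in trogocytic library 2 and Zeb2 in trogocytic library 3 rest on under 10 read-pair equivalents. For Zeb1 read-pair equivalents were not computed.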
